A study of Mus musculus with 2 samples.

Results

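Integrins are cell surface receptors made of 1 α and 1 β chain, and leukocytes use them to adhere to vessel walls, to other cells and to matrix. The 9 genes described here encode the chains best known from blood and tissue myeloid cells. Itgb2 encodes the β2 chain (CD18), which pairs with the products of Itgal (LFA-1), Itgam (CD11b, Mac-1) and Itgax (CD11c). Itga4 encodes the α4 chain, which pairs with the β1 chain of Itgb1 (VLA-4) or the β7 chain of Itgb7. Itga6 and Itga9 encode α chains that pair with β1; α6β1 is known as a laminin receptor, and α9β1 binds tenascin C and related ligands. An integrin binds firmly only once talin and kindlin have attached to the tail of its β chain, which couples it to actin. LFA-1 and VLA-4 are known for carrying blood monocytes and lymphocytes out of vessels, whereas CD11b is carried by resident microglia and by blood myeloid cells alike.

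The genes were found by symbol, and all 9 of 9 were among the 55357 genes of the count tables. Mice were 8 weeks old, and cells of their cerebral cortex were sorted for CD45 and CD11b, so the protein encoded by Itgam was itself a condition of entry. One group was labelled wild-type and the other Msn knockout, without moesin, a protein that ties the plasma membrane to actin. Each group was 1 library from the pooled cortices of 5 to 6 mice, made with the 10x Genomics 3′ v2 chemistry, which counts each captured RNA molecule once as a unique molecular identifier (UMI). No other allele or agent is named in the labels for either group. Genotype and library therefore cannot be told apart, no difference below has a replicate check, and no test was made.

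There were 5842 barcodes with 68576464 UMIs in the wild-type library, and 9038 barcodes with 67575835 UMIs in the Msn knockout library. Cells with at least 500 genes and at most 10% mitochondrial UMIs numbered 5577 and 7573, at medians of 7178 and 5455 UMIs, and 13 barcodes occurred in both libraries. A cell was gated as microglia on P2ry12 and Tmem119, as a monocyte on Ace or Ly6c2, as a border macrophage on Mrc1 and Pf4, or as a natural killer (NK) cell on Ncr1 and Nkg7, with at least 1 UMI of each gene asked for. Cells that passed the gates of more than 1 class, 303 wild-type and 1258 knockout cells, were set apart as mixed. Cells that passed only the NK and monocyte gates, the latter by Ly6c2 without Ace, were an exception and were counted as NK cells. Microglia numbered 4972 and 4458, monocytes 55 and 666, and border macrophages 25 and 132, while NK cells numbered 0 and 61. The 7 microglia markers not used for gating were all at 10 CPM or more in microglia of both libraries, as were the 8 monocyte markers in monocytes and the 6 NK markers in NK cells. CPM are UMIs of a gene per mega-count of all UMIs of the class. Border macrophages had all 6 of their markers at that level but also carried microglia markers, at 2502 CPM summed in wild-type and 3862 CPM in knockout cells, so their values are of a mixed kind. Monocytes carried all 7 microglia markers at 10 CPM or more too, at 734 CPM summed in wild-type and 632 CPM in knockout cells. Microglia held Msn at 320 (wild-type) and 20.5 CPM (knockout), and monocytes at 736 and 53.3 CPM. The part of the gene that was deleted is not given in the sources used here.

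Itgam, Itgax and Itgal lie on chromosome 7 of GRCm39, on the forward strand. Itgam spans 127661808 to 127717753, its neighbour Itgax 127728668 to 127749829, and Itgal 126895432 to 126934320. Itga6 (71575960 to 71689757) and Itga4 (79085660 to 79163467) lie on chromosome 2, Itgb2 on chromosome 10, Itgb1 on chromosome 8, Itga9 on chromosome 9 and Itgb7 on chromosome 15, the last on the reverse strand. RefSeq promoters on the older build GRCm38.p6 were given for 6 of the 9 genes. The 250 bases before the start are printed for Itgam and Itgax, which are neighbours with very unlike levels in microglia, and for Itga4, whose level in monocytes differed most between the libraries. Capitals mark GAGGAA or its reverse complement TTCCTC, a core bound by PU.1, the master regulator of myeloid cells, and TGTGGT or its reverse complement ACCACA, a core bound by RUNX factors.
Itgam, chr7:128062390-128062639, forward strand: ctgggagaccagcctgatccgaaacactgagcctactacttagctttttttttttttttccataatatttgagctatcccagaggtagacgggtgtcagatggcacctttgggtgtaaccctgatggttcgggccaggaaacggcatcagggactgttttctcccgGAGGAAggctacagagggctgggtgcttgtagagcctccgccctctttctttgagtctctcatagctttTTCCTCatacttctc
Itgax, chr7:128129300-128129549, forward strand: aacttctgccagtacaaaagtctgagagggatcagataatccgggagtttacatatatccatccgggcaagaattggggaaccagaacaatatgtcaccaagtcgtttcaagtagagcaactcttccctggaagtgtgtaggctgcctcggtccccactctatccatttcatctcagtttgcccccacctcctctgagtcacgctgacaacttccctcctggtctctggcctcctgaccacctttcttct
Itga4, chr2:79255176-79255425, forward strand: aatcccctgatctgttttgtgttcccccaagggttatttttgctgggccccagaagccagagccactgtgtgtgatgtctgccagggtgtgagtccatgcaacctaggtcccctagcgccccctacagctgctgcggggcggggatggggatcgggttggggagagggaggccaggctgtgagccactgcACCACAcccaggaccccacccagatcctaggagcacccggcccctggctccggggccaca
Itgam held 2 PU.1 cores, whose first bases stood 84 and 15 bases before the start, and Itga4 held 1 RUNX core, 60 bases before it. Itgax held neither in this window. Among the given promoters not printed, Itgb1 held 1 PU.1 core and no RUNX core. Itga9, which microglia carried, and Itgb7, which they hardly carried, held neither. A link of these cores to the levels was not tested. Of 32851 promoters in the same table, 23.3% held the PU.1 core and 14.0% the RUNX core within the same 250 bases, so single matches are common.

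Microglia carried Itgam, Itgb2, Itgb1, Itga6 and Itga9, and hardly any Itgal, Itga4, Itgb7 or Itgax. Since each molecule is counted once, levels of different genes are compared here as shares of molecules, with no division by gene length. Itgam was the most abundant chain in wild-type microglia, at 591 CPM (95% Poisson interval 585 to 597). Itga6 followed at 391 CPM, and Itgb1 and Itgb2 stood side by side at 249 CPM each, with overlapping intervals. Itga9 was at 80.4 CPM. The other 4 chains were far lower, with Itgax at 6.07, Itga4 at 2.66, Itgal at 0.780 and Itgb7 at 0.492 CPM. All intervals in the text are exact, at 95%, and cover counting error only.

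In knockout microglia Itgam was again first, at 474 CPM, and Itgb2 (188 CPM) and Itgb1 (187 CPM) again overlapped. Itga6 stood at 177 CPM, behind both β chains, where it had stood ahead of them in the wild-type library. Itga9 was at 49.97 CPM, and the 4 low chains lay between 3.18 CPM for Itgb7 and 7.50 CPM for Itgal. Cells were then thinned to 2000 UMIs each, to compare shares of cells at equal depth, which left 4836 wild-type and 4115 knockout microglia. An Itgam UMI was present in 66.6% and 58.0% of them, an Itgb2 UMI in 39.0% and 31.7%, and an Itgb1 UMI in 38.6% and 29.9%. Itga6 was found in 51.6% (50.2% to 53.0%) of wild-type and 29.4% of knockout cells. The 4 low chains each reached at most 1.60% of cells in either library.

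**Figure D1:**
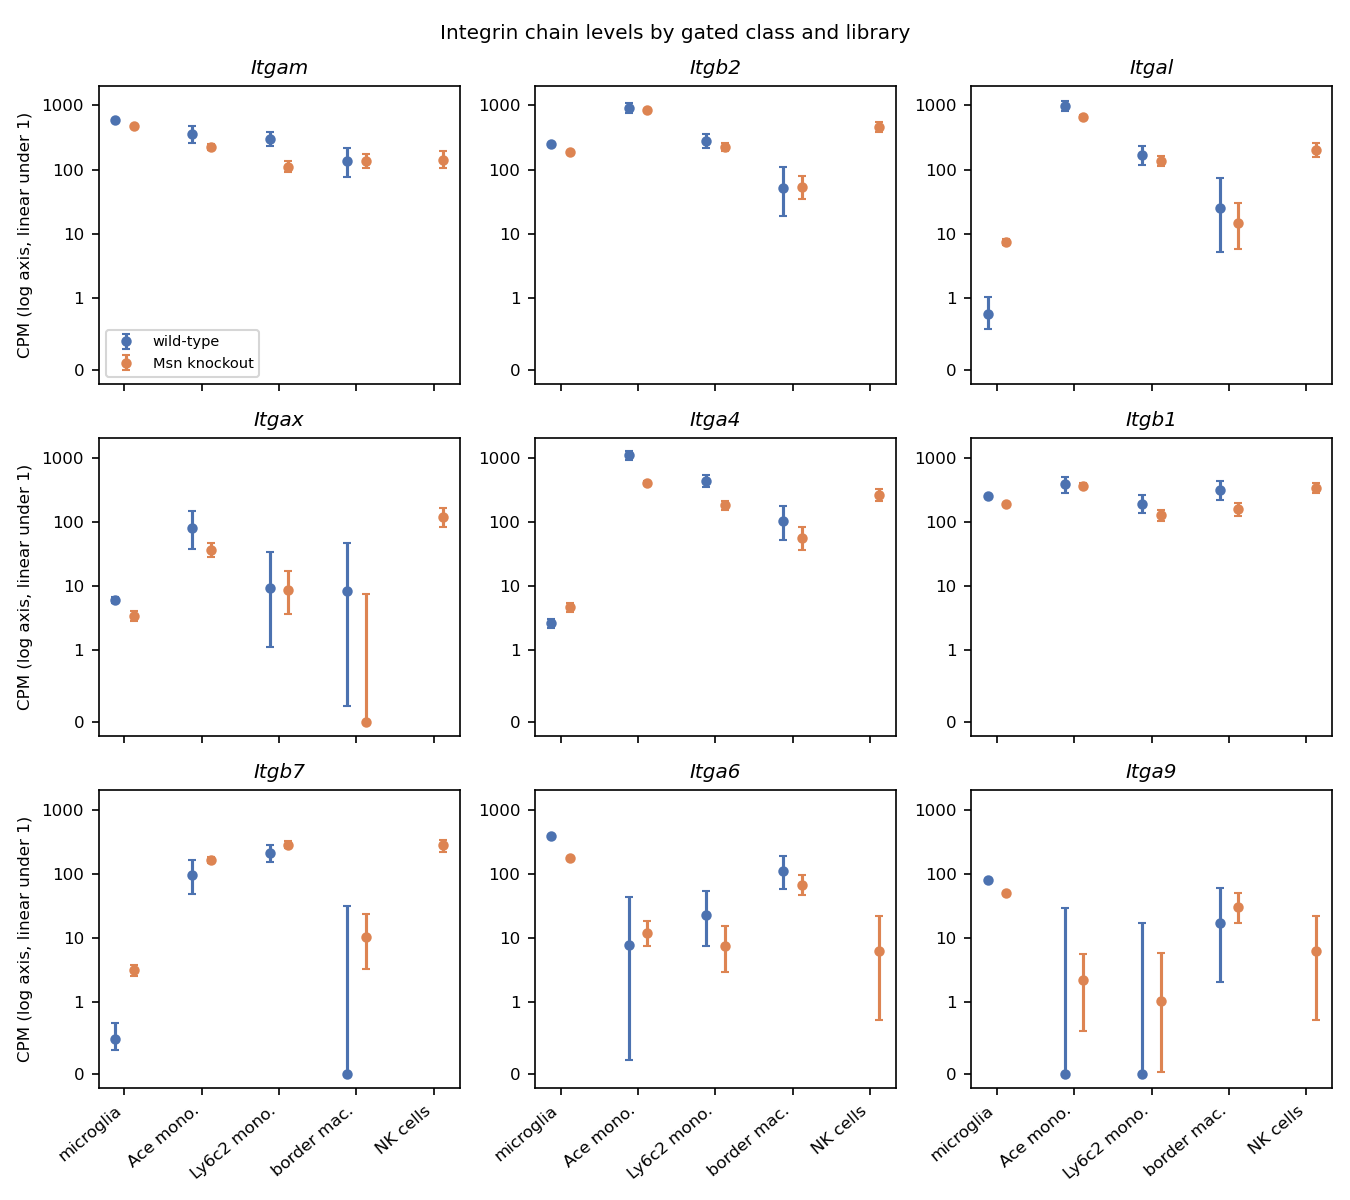
Level of each integrin chain in CPM (log axis, linear under 1) in gated classes of the wild-type (blue) and Msn knockout (orange) libraries, each point being the UMI sum of 1 class in 1 library with its exact 95% Poisson interval. Itgal, Itga4 and Itgb7 stand high in monocytes and NK cells and under 10 CPM in microglia, Itga6 and Itga9 stand highest in microglia, and Itgb1 lies between 126 and 381 CPM in every class drawn.

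Monocytes carried the chains that microglia lacked. In the wild-type library the 55 monocytes had Itga4 at 699 CPM, Itgb2 at 538, Itgal at 477, Itgam at 324, Itgb1 at 291 and Itgb7 at 170 CPM. The 666 knockout monocytes had Itgb2 at 638 CPM, Itgal at 501, Itga4 at 332, Itgb1 at 295, Itgb7 at 218 and Itgam at 191 CPM. Itga4 was thus the first chain in one library and the third in the other. Itgax was low in both, at 29.6 CPM on 12 UMIs and 31.4 CPM on 117. Itga6 was at 17.3 CPM on 7 UMIs and 8.85 CPM on 33. The part of RNA from microglia in these low Itga6 levels was not tested. Itga9 had 0 UMIs in wild-type and 7 in knockout monocytes.

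Against microglia of the same library, 5 of the 9 chains were higher in monocytes by 2-fold or more in both libraries: Itgb2, Itgal, Itgax, Itga4 and Itgb7. Of all genes that reached 10 CPM in either class, 15.2% were higher by that much in wild-type and 15.5% in knockout monocytes. Lower were 2 chains in the wild-type library (Itga6 and Itga9) and 3 in the knockout library (these and Itgam), where 33.5% and 28.7% of all genes were lower. The log2 ratio of monocytes over microglia was 9.25 (8.78 to 9.75) for Itgal, 8.44 for Itgb7 and 8.04 for Itga4 in the wild-type library, and 6.06, 6.10 and 6.14 in the knockout library. The smaller knockout ratios of Itgal and Itgb7 go with their higher level in knockout microglia, described further on. Itgb2 was higher by a log2 ratio of 1.11 in wild-type and 1.76 in knockout monocytes. Itga6 was lower by a log2 ratio of -4.50 and -4.32. Itga9 was at least 10.8-fold lower in wild-type monocytes, taking 3 UMIs as the limit that a count of 0 allows, and its log2 ratio was -4.74 in the knockout library. Itgb1 was within 2-fold in both, at 0.23 and 0.66.

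Among monocytes, cells with Ace only, the mark of the patrolling, non-classical kind, differed in their integrins from cells with Ly6c2 only, the mark of the classical kind. Itgal was at 992 CPM in the 24 wild-type Ace monocytes and 168 CPM in the 23 Ly6c2 monocytes, and at 669 and 136 CPM in the 387 and 127 knockout cells. Its log2 ratio was 2.56 (2.02 to 3.14) and 2.29 (2.03 to 2.57). Itgb2, its partner, was at 913 and 280 CPM (wild-type) and at 849 and 227 CPM (knockout), with log2 ratios of 1.70 and 1.91. Both LFA-1 chains were therefore higher in Ace monocytes, by 2-fold or more, in both libraries. The same held for Itga4, with log2 ratios of 1.33 and 1.19, and for Itgax, with 3.09 on 10 and 2 UMIs and 2.09 on 66 and 8 UMIs.

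Itgb7 went the other way: wild-type Ace monocytes had 95.2 CPM and wild-type Ly6c2 monocytes 210.0 CPM, and their knockout counterparts 166 and 284 CPM. Its log2 ratios were -1.14 (-2.20 to -0.20) and -0.78 (-1.02 to -0.53), the latter within 2-fold. Itga4 and Itgb7, which can form 1 receptor, were thus unlike in their distribution over monocytes. Itgam was within 2-fold in the wild-type library (log2 ratio 0.26) and higher in knockout Ace monocytes (1.02), but after thinning the values were 1.06 and 0.77, so that the calls changed places, and the knockout call was lost in 4 of 12 settings. Itgb1 was at 0.99 and 1.55. In all, 4 chains were higher and 2 lower in the wild-type library, where 25.0% and 18.0% of all genes were, and 6 higher and 0 lower in the knockout library, against 10.4% and 9.57% of all genes. The wild-type Itga6 value among these rests on 1 and 5 UMIs. Monocytes with both Ace and Ly6c2, 8 wild-type and 152 knockout cells, had Itgal at 496 and 537 CPM, which lay between the levels of the other monocytes of their library.

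NK cells, found by this gate only in the knockout library, had the same chains above and below microglia by 2-fold as knockout monocytes did. Itgb2 led at 462 CPM (391 to 543), followed by Itgb1 at 337, Itgb7 at 278, Itga4 at 262, Itgal at 203, Itgam at 144 and Itgax at 119 CPM, while Itga6 and Itga9 had 2 UMIs each. Against knockout microglia, 5 chains were higher by 2-fold or more, with log2 ratios of 6.45 for Itgb7, 5.80 for Itga4, 5.12 for Itgax, 4.76 for Itgal and 1.30 for Itgb2. Lower were 3 chains, Itgam (log2 ratio -1.72), Itga6 and Itga9. Of all genes 19.0% were higher and 30.7% lower. Monocyte markers summed to 1549 CPM in NK cells, 80.4% of it in 10 cells, and microglia markers to 603 CPM. T cell markers, all 4 of which had UMIs, summed to 253 CPM, 96.3% of it in 10 cells. The part of RNA from these other cell types in the integrin levels of NK cells was not tested.

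**Figure D2:**
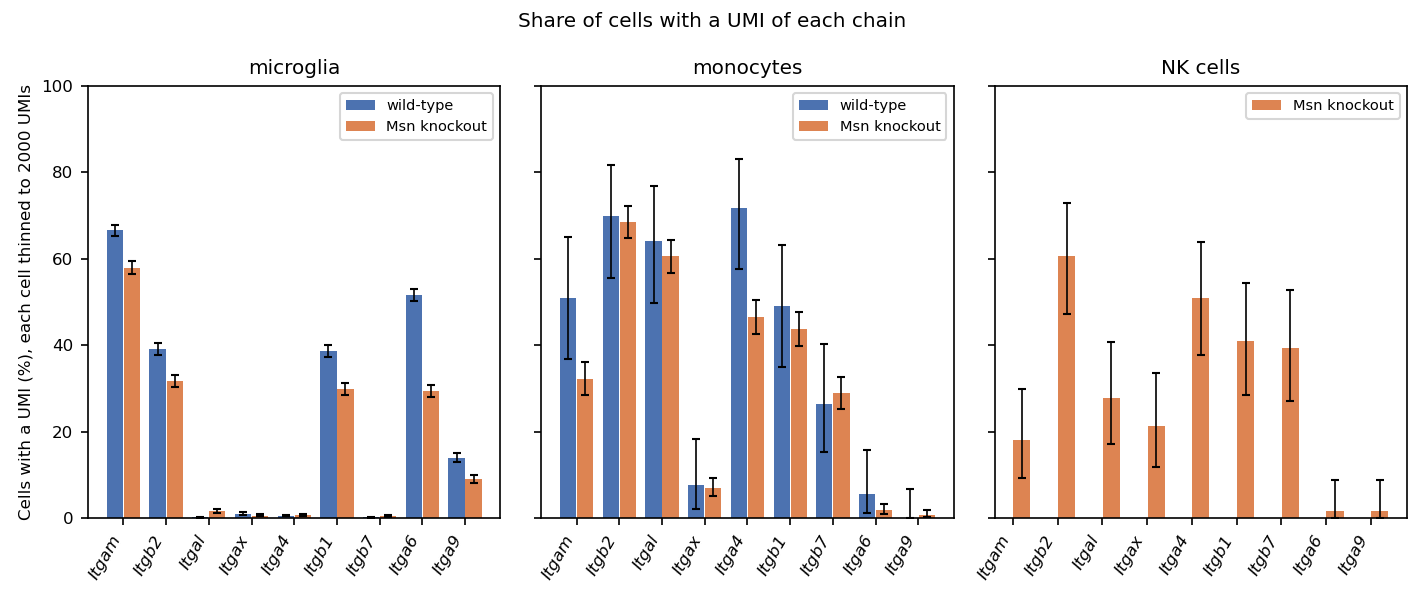
Share of cells with at least 1 UMI of each chain after each cell was thinned to 2000 UMIs, in microglia, monocytes and NK cells, with exact 95% binomial intervals (blue wild-type, orange Msn knockout). Itgal is found in 64.2% and 60.6% of monocytes and in 0.145% and 1.60% of microglia, and Itga6 in 51.6% and 29.4% of microglia and in 5.66% and 1.92% of monocytes.

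Border macrophages, the macrophages of the meninges and perivascular spaces, had few cells and few UMIs. Itgb1 was their leading chain, with 37 wild-type UMIs (314 CPM) and 75 knockout UMIs (156 CPM). Itgam was at 136 and 137 CPM, and Itgb2 at 50.9 and 54.0 CPM, both lower than in microglia by 2-fold or more in each library (log2 ratios -2.12 and -1.79 for Itgam, -2.29 and -1.80 for Itgb2). Itga4 was at 102 CPM on 12 UMIs and 56.0 CPM on 27, higher than in microglia in both libraries. In all, 2 chains were higher and 4 lower in the wild-type library, where 13.8% and 25.5% of all genes were, and 2 higher and 3 lower in the knockout library, against 9.09% and 14.1%. Of the calls in border macrophages, wild-type Itgal rested on 3 UMIs and Itga9 on 2, and knockout Itgb7 on 5. Monocyte markers summed to 7692 and 5335 CPM in these cells, of which Lyz2 made up 7608 and 5213 CPM, and their part in the Itga4 level was not tested.

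Partner chains were found in the same cells about as often as their separate shares give. In thinned microglia, Itgam and Itgb2 occurred together in 25.7% of wild-type and 17.9% of knockout cells, and the product of their shares was 26.0% and 18.4%. Itga6 and Itgb1 occurred together in 20.5% and 8.97% of microglia (products 19.9% and 8.80%). In monocytes, Itgal with Itgb2 was found in 45.3% and 45.4% of cells, and Itga4 with Itgb1 in 39.6% and 22.0% (products 35.2% and 20.3%). Itga4 with Itgb7 was found in 13.2% and 12.3% of monocytes (products 18.9% and 13.4%).

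Between the libraries, the microglial chains were compared relative to the median gene, since the median log2 ratio of CPM, knockout over wild-type, was -0.29 over 8721 genes at 10 CPM or more in either library. A change of size was called at 1.5-fold. Of the 5 chains above this floor, 0 were higher, 1 was lower (Itga6) and 4 were within 1.5-fold, where 15.0% of all genes were higher and 12.4% lower. Itga6, at 391 and 177 CPM, had a relative log2 ratio of -0.85 (-0.89 to -0.81), which is 1.80-fold lower, or 2.21-fold on the CPM scale. Itgb1, its partner chain, was within 1.5-fold, at -0.12 (-0.16 to -0.08). Itga9 was at -0.39 (-0.47 to -0.31) and passes 1.5-fold only on the CPM scale, at -0.69, where 30.2% of all genes are lower.

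The 2 chains of CD11b/CD18 were nearly level relative to the median gene, Itgam at -0.02 (-0.05 to 0.00) and Itgb2 at -0.11 (-0.15 to -0.07). On the CPM scale they stood at -0.32 and -0.40, and with the median taken over genes with 1 UMI in both libraries their sign turned, to 0.11 and 0.03, as did that of Itgb1, to 0.01. The sort for CD11b selects on the protein of Itgam in both libraries.

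The lower Itga6 value was present in shallow and deep cells alike. Wild-type first, it was at 404 and 207 CPM in microglia of 500 to 2000 UMIs, and at 403 and 184 CPM in those of 20000 or more. Its relative log2 ratio lay between -0.89 and -0.73 over the 5 depth ranges. Itgam went from 377 to 633 CPM with depth in wild-type and from 419 to 535 CPM in knockout microglia, so that its relative ratio was 0.38 (-0.02 to 0.81) in the shallowest cells and between -0.04 and 0.10 in the others.

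**Figure D3:**
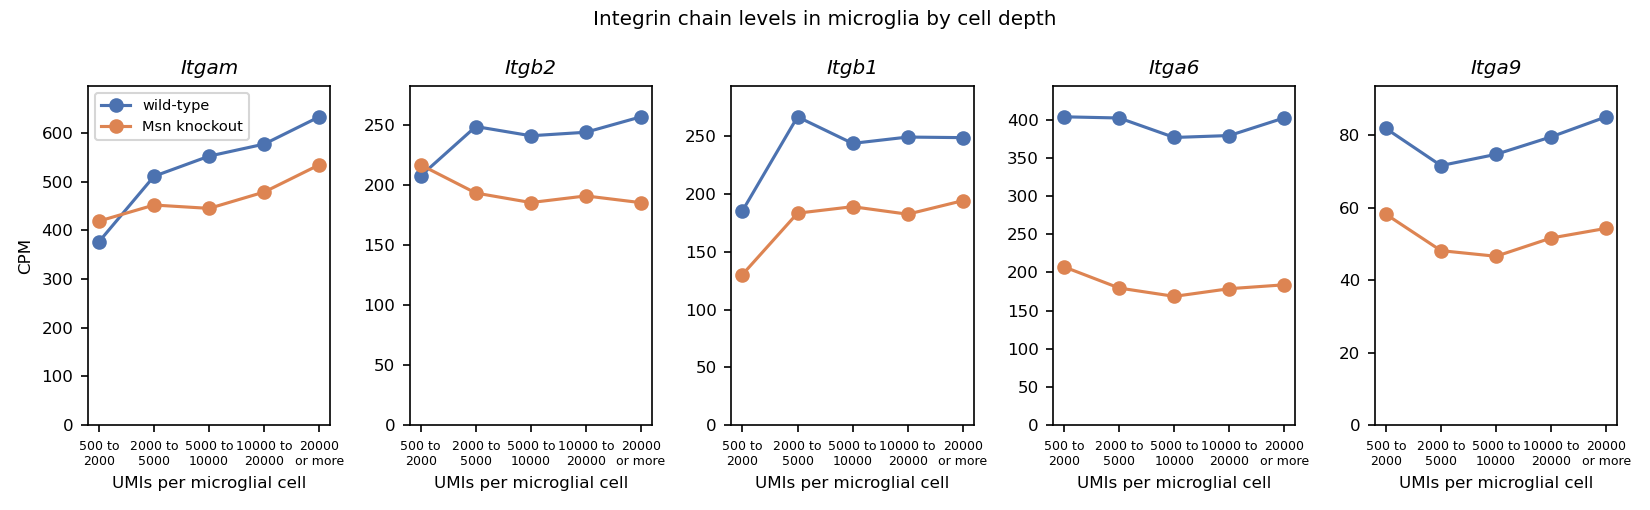
CPM of 5 integrin chains in microglia by the number of UMIs per cell, wild-type in blue and Msn knockout in orange, each point being a sum over the cells of 1 depth range. Itga6 is lower in the knockout library at every depth (404 against 207 CPM in the shallowest range, 403 against 184 CPM in the deepest), and Itgam is higher in deeper cells of both libraries.

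In monocytes, 8 chains were above the floor, 0 of them higher and 2 lower by 1.5-fold, against 20.2% and 22.0% of 7606 genes, and the median log2 ratio of CPM was -0.20. Itga4 had a relative log2 ratio of -0.87 (-1.06 to -0.68), which is 1.83-fold lower. Itga6 was at -0.76 with an interval from -1.96 to 0.66, on 33 and 7 UMIs. Itgam was at -0.56 (-0.83 to -0.28), within 1.5-fold, and lower on the CPM scale at -0.76, where 29.9% of all genes are lower. Itgb7 at 0.56 (0.20 to 0.93), Itgb2 at 0.45 (0.25 to 0.66), Itgal at 0.27, Itgax at 0.29 and Itgb1 at 0.22 were within 1.5-fold. The Itga4 difference was thus the only one above 1.5-fold whose counting interval stayed below 0. Such an interval leaves out the spread between cells. In thinned monocytes the variance of Itga4 UMIs over their mean was 1.54 (wild-type) and 1.27 (knockout), so the interval is too narrow for that spread.

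The 2 kinds of monocytes made up unequal shares of the libraries, so each was compared on its own. Itga4 was at 1079 CPM in wild-type and 408 CPM in knockout Ace monocytes, a relative log2 ratio of -1.11 (-1.38 to -0.84). In Ly6c2 monocytes it was at 429 and 179 CPM, a ratio of -1.14 (-1.52 to -0.76). In Ace monocytes 27.9% of all genes were higher and 27.6% lower by 1.5-fold, and in Ly6c2 monocytes 23.0% and 26.5%, so calls of this size were frequent where the wild-type sums came from 24 and 23 cells. After thinning, an Itga4 UMI was present in 71.7% of wild-type monocytes (57.7% to 83.2%), against 46.5% of those from the knockout (42.5% to 50.5%).

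Itgam was lower in knockout Ly6c2 monocytes (299 CPM in wild-type cells, 112 CPM in theirs), with a relative log2 ratio of -1.30 (-1.76 to -0.83). In Ace monocytes it was at 357 and 226 CPM (-0.36, -0.81 to 0.11). After thinning the ratios were -0.63 in Ly6c2 and -0.81 in Ace monocytes, so their order turned. Itgb7 was higher in knockout Ace monocytes, at 1.09 (0.27 to 2.06) on 299 and 12 UMIs, and 0.42 after thinning. Itgax was at -0.82 there, on 66 and 10 UMIs. Knockout monocytes also held neutrophil markers at 2146 CPM, 99.1% of it in 10 cells, and choroid plexus markers at 604 CPM, 97.6% in 10 cells, and wild-type monocytes held 729 and 0 CPM. Without cells in which markers of choroid plexus, neutrophils, T cells and B cells reached 0.1% of UMIs, a setting chosen after seeing the data, Itga4 was at -0.84 in monocytes, -1.12 in Ace and -0.99 in Ly6c2 monocytes.

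**Figure D4:**
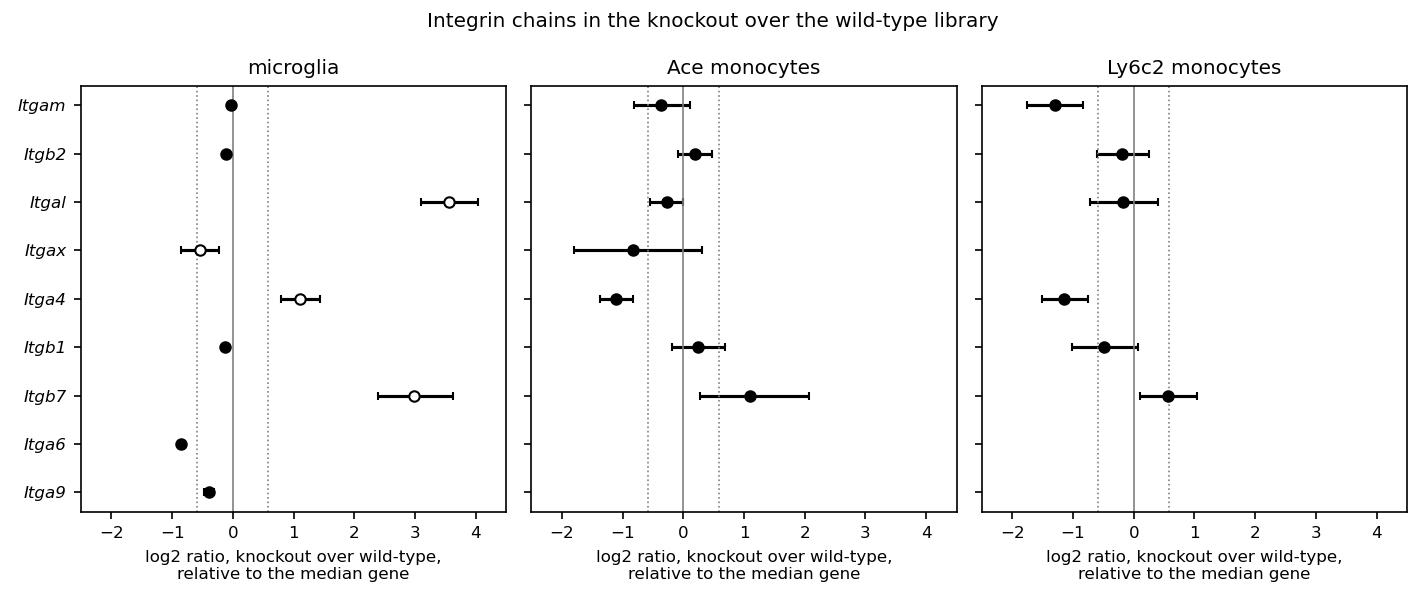
Log2 ratio of knockout over wild-type CPM relative to the median gene, with exact 95% intervals, in microglia, Ace monocytes and Ly6c2 monocytes. Open points are chains under 10 CPM in both libraries, chains with fewer than 10 UMIs in either library are not drawn, and dotted lines mark 1.5-fold. Itga6 stands at -0.85 in microglia, and Itga4 at -1.11 and -1.14 in the 2 kinds of monocytes.

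In border macrophages 8 chains were above the floor, 2 of them higher (Itgb7 and Itga9) and 3 lower (Itgal, Itga4 and Itgb1) by 1.5-fold. Itgb7 had 5 knockout and 0 wild-type UMIs. Itgb1 had a relative log2 ratio of -0.86 (-1.44 to -0.25), and the intervals of Itgam, Itgb2, Itgal, Itga4, Itga6 and Itga9 all included 0. There, 28.7% of all genes were higher and 30.4% lower by 1.5-fold. The Itgb1 value was -0.33 with gates of 2 UMIs, so it depended on how the class was drawn.

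A few UMIs of the monocyte chains were found in microglia of both libraries, at levels under the floor. Itgal had 46 UMIs in 39 wild-type and 257 UMIs in 173 knockout microglia, and Itgb7 29 UMIs in 23 and 109 UMIs in 73. Itga4 had 157 UMIs in 120 and 161 UMIs in 113 microglia, and Itgax 358 UMIs in 264 and 117 UMIs in 99. Of the knockout microglia with an Itgal UMI, 41.0% also had a UMI of a monocyte marker other than Lyz2, against 15.8% of those without. For Itgb7 the shares were 58.9% and 16.1%, and for Itga4 54.9% and 15.8%. In wild-type microglia they were 35.9% and 11.03% for Itgal, 43.5% and 11.1% for Itgb7 and 28.3% and 10.8% for Itga4. Cells with a UMI of any of the 9 chains had the higher share in both libraries, Itgam included (17.9% and 10.3% in the knockout library), and the cells were not matched on depth here. Wild-type first, monocyte markers in microglia summed to 220 and 282 CPM, and NK markers to 0.763 and 14.6 CPM. Monocytes were 0.986% of wild-type and 8.79% of knockout cells, and the part of RNA from these cells in the low levels was not tested.

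Over all kept cells, before any gating, Itgal was at 7.11 and 62.5 CPM, Itgb7 at 2.33 and 27.0 CPM and Itga4 at 11.6 and 44.2 CPM, wild-type first. The relative log2 ratios were 3.45, 3.85 and 2.25, and Itga6 was at -1.001, where 18.0% of all genes were higher and 13.5% lower. Microglia made up 89.2% of the kept wild-type and 58.9% of the kept knockout cells. The ungated ratio of Itga4 was thus above 0 while its ratio within monocytes was below 0.

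Other genes of the pathway were mostly within 1.5-fold in microglia, as were most genes. Of all genes above the floor, 15.0% were higher and 12.4% lower there. Of 17 other integrin chains 4 were above the floor, 1 of them lower and 3 within. Itgav, the αv chain of vitronectin receptors, was at 137 and 66.6 CPM (relative log2 ratio -0.75, -0.81 to -0.68), and its partner Itgb5 at 1019 and 903 CPM (0.12). Of 28 genes of integrin activation and adaptors 20 were above the floor, 0 higher, 1 lower and 19 within, with a median of 0.02 against 0 over all genes. The lower one was Tln2, a talin, at 85.9 and 42.1 CPM (-0.74), while Tln1, the main talin of leukocytes, was at -0.17 and Fermt3, their kindlin, at 0.26. All 5 genes of a list of other regulators of integrin activation (Itgb1bp1, Sharpin, Flna, Dok1 and Fblim1) were within 1.5-fold. All 4 measured ligands of 16 were too. The medians were -0.13 for the regulators and 0.31 for the ligands.

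In monocytes, 3 of 22 measured activation and adaptor genes were higher and 4 lower, where 20.2% of all genes were higher and 22.0% lower, so the list lay near the background. Of 5 other integrin chains 1 was higher and 2 lower, of 4 measured genes of the regulator list 1 was higher, and of 7 ligands 3 were lower. The 3 higher adaptor genes were Rasgrp2, which activates Rap1 (173 and 315 CPM, relative log2 ratio 1.07), and Rap1a and Rap1b, the small GTPases that switch on integrins (0.70 and 0.59). The 4 lower ones were Parvb, a parvin (-1.83, on 18 and 8 UMIs), Ptk2b (Pyk2, -0.91) and Syk (-0.67), both tyrosine kinases, and Lims1, the adaptor PINCH1 (-0.86). The 3 lower ligands were Fn1, fibronectin, bound by α4β1 (336 and 85.0 CPM, -1.78), Thbs1 (-2.28) and C3 (-1.30). These monocyte genes were named after their values were seen. They were compared over all monocytes, whose 2 kinds made up unequal shares of the libraries. In Ace monocytes alone, 3 of 22 adaptor genes were higher and 3 lower, and 2 of 7 ligands were higher and 2 lower. In Ly6c2 monocytes alone, 1 adaptor gene was higher and 5 lower, and 1 ligand was higher and 5 lower. Of all genes, 27.9% were higher and 27.6% lower in Ace monocytes, and 23.0% and 26.5% in Ly6c2 monocytes. The part of the 2 kinds in these ratios was not tested.

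The pattern of each chain over the 10 sums of classes by library was compared with that of the 5692 genes that reached 50 CPM in a sum, by Pearson's r of log2(CPM + 1). The sums share libraries and cells differ in number, so r is a description. Closest to Itgal were Spn, Traf1 and Rasgrp2, closest to Itga6 were Srgap2, Odr4 and Btg2, and closest to Itga4 were Rpl37a, Iqgap1 and Clec2i. Closest to Itgb7 were Anxa2, Plp2 and Anxa1, and to Itga9 C5ar2, Armc5 and Chst7. For Itgam they were E030022I16Rik, Sort1 and Cd53, for Itgb2 Rbpms, Arhgef1 and Ggct, for Itgax C230096K16Rik, Prkch and Rab11b, and for Itgb1 Smc6, Rock1 and Mier1. Among the chains themselves, Itgal and Itga4 had r = 0.94, Itga6 and Itga9 r = 0.84, and Itgal and Itga6 r = -0.93.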

How the data were processed

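The authors deposited UMI counts per gene and cell barcode for 1 library per genotype. Per the file headers these were made with Cell Ranger 7.0.0, whereas the labels' protocols name version 6.0, with GRCm39 as the build and Seurat for quality control. The deposited counts still include barcodes under the filter at 500 genes that the labels' protocols name. Coordinates are from GENCODE on GRCm39, matched by identifier for 54749 genes (98.9%).

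Counts were summed over the gated cells of a class and library and divided by the sum of all genes to give CPM. Ratios were computed for classes of at least 20 cells. No doublet caller was run. Ratios were taken for genes at 10 CPM or more in either sum, called at 1.5-fold between libraries and at 2-fold between classes, with exact conditional binomial intervals at 95%. Python 3.11.15, numpy 2.4.6, scipy 1.17.1 and pandas 2.3.3 were used, and the computation was tested on simulated data. Of other pathway genes, those past 1.5-fold in microglia were to be named, at most the 3 highest and 3 lowest of a list, and for likeness the 3 genes with the highest r. Gene lists and members were chosen with earlier results of these data known. Alternatives covered the gates, depth, mitochondrial share, scaling and the genes taken for the median, while the floor of 10 CPM for a call was kept. Gm49368 overlaps Itgam on the same strand and had 183 and 100 UMIs, and lncRNA genes overlap Itga6 on the same strand, so reads there may be split. The genes that overlap Itga4 and Itga9 lie on the opposite strand only.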

Additional observations from a re-analysis of the deposited data

Results flagged for a closer look

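The ratio of knockout over wild-type went opposite ways in microglia and monocytes for a pair of chains. Itgb2 had a relative log2 ratio of 0.45 in monocytes and -0.11 in microglia. Itga4 had -0.87 in monocytes and 1.11 in microglia, where it was at 2.66 and 4.70 CPM, under the floor. Both Itgb2 values were within 1.5-fold, and with the median taken over genes with 1 UMI in both libraries the microglial one was 0.03, so that the directions were no longer opposite. With 1 library per genotype these differences were not tested.

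The cells outside the comparisons also held monocyte chains, at higher levels in the knockout library. In mixed cells, which passed the gates of more than 1 class, Itgal was at 66.8 CPM in the knockout and 28.2 CPM in the wild-type library, Itga4 at 46.8 and 36.6 CPM, and Itgb7 at 25.0 and 6.82 CPM. Of the mixed cells 103 wild-type and 488 knockout cells passed the gates of microglia and monocytes only. The median depths of all mixed cells, 21462 and 14313.5 UMIs, were above those of microglia. In cells that passed no gate, Itgal was at 130.4 CPM in the knockout and 10.3 CPM on 4 UMIs in the wild-type library, Itga4 at 127 and 74.7 CPM, and Itgb7 at 79.2 and 7.73 CPM on 133 and 3 UMIs. These cells, 222 and 998 in number, were shallow, with medians of 1283.5 and 983 UMIs. They were of several kinds. Wild-type first, microglia markers summed to 6371 and 4007 CPM, monocyte markers to 817 and 2977 CPM and neutrophil markers to 3253 and 6559 CPM. Erythroid markers summed to 0 and 4472 CPM and choroid plexus markers to 0 and 2167 CPM. The part of these kinds in the levels of the chains was not tested.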

How the results depend on the processing

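Over 15 settings, 1194 of 1227 alternative values of single chains had the sign of the reported value, and 673 of 704 alternatives of called values were still called. Of 140 alternatives of shares of cells with a UMI (1000 UMIs per cell, or no thinning), 51 were within the interval of the reported share. Such shares follow the depth of the cells, so this count is no check on them. Itgam in wild-type microglia was in 41.4% of cells at 1000 UMIs, 66.6% at 2000 UMIs and 92.3% without thinning. Itga6 in microglia lay between -1.14 and -0.72 and Itga4 in monocytes between -1.07 and -0.76 over all 15 alternatives of each. Of 220 alternative counts of called chains, 202 were within 1.5 times the reported count. Among the others, in microglia 1 chain was higher with gates of 2 UMIs (0 reported), and 2 were lower on the CPM scale (1 reported). In monocytes 1 chain was higher (0 reported) with gates of 2 UMIs, a microglia gate at 500 CPM, at most 5% mitochondrial UMIs, cells of 4000 to 12000 UMIs, the mean of per-cell CPM, the median of genes with 1 UMI in both libraries, and cells under 0.1% other-cell markers. There 1 chain was lower (2 reported) without cells with any P2ry12 or Tmem119 UMI, at 5% mitochondrial UMIs, with per-cell means, and under 0.1% other-cell markers, each time without Itga6. For Ace over Ly6c2 monocytes in the wild-type library 1 chain was lower (2 reported) with gates of 2 UMIs, the 500 CPM gate and under 0.1% other-cell markers, and 0 after thinning; in the knockout library 1 was lower (0 reported) with per-cell means. The cause was not tested. Among called values, 697 of 704 alternatives had the same sign, and the other 7 rest on few UMIs: Itga6 in Ace monocytes, knockout over wild-type (0.92 reported on 22 and 1 UMIs), was -0.42 with gates of 2 UMIs, -0.083 with the 500 CPM gate and -0.38 after thinning. Itgal in border macrophages (-0.65 reported on 7 and 3 UMIs) was 0.14 with gates of 2 UMIs, 0.13 after thinning and 0.47 with per-cell means. Itga6 in Ace over Ly6c2 monocytes of the wild-type library was 0.074 with gates of 2 UMIs. Settings that left a class under 20 cells gave no value. No paired analysis was possible because each genotype had 1 library.

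The wild-type library held 55 monocytes, 25 border macrophages and 0 NK cells, which limits the counting precision there, and with 1 library per genotype the spread between libraries is unknown.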
